A study of Sus scrofa domesticus with 4 samples.

Results

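The genes described here are SPARC, ACTA2, FBN1, DCN, LUM, COL1A1, COL1A2 and COL3A1, which mark the connective tissue and the vessel-wrapping mural cells of a gland. They were found on the array through the RefSeq accession of each probe, matched without its version to the NCBI table of pig genes (assembly Sscrofa11.1). This gave 18 probes for 4 of the 8 genes, out of 43603 probes and 2459 named genes on the array. SPARC had 7 probes, ACTA2 4, FBN1 3 and DCN 4. For LUM, COL1A1, COL1A2 and COL3A1 0 probes matched, so the fibrillar collagens of the set and lumican were not analysed here; this says nothing about whether these genes are expressed.

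The study compared early pregnancy with the estrous cycle in 8 sexually mature gilts, pigs that have not farrowed, of the cross Large White x Polish Landrace. The 4 pregnant gilts were mated naturally and sampled on days 12 to 13 of pregnancy, with conceptuses present, and the 4 cyclic gilts on days 12 to 13 of the cycle. RNA from the anterior pituitary was hybridised to 4 two-colour Agilent arrays, a pregnant against a cyclic gilt on each. By the sample labels the pregnant gilt was labelled with Cy3 on arrays 1 and 3, and with Cy5 on the other two. The labelling protocol can also be read as pregnant RNA in Cy3 throughout. The sample labels were followed, and values under the other reading are given where they bear on a result.

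The stroma of the anterior pituitary is a thin net of collagen and other matrix around cords of hormone cells and around a dense bed of capillaries. Fibroblasts and pericytes, the contractile cells that sit on capillaries, make most of that matrix. Collagens give it tensile strength, small proteoglycans such as decorin shape the collagen fibrils, fibrillin forms microfibrils that hold growth factors of the TGF-beta family, and SPARC binds collagen and tunes how cells attach to matrix. Whole glands were measured, so fewer stromal cells and less RNA per stromal cell cannot be told apart.

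Between 47.5% and 67.9% of the spots were well above background in Cy3 and between 60.7% and 71.8% in Cy5, and 0 were saturated. Precision is limited by there being 4 arrays, which share 1 slide and 1 scan. On array 4 a connected area covering 14.3% of the spots was dim in both dyes, and 3 of the 18 probes have their spot inside it. The log2 ratios of all tested probes had an SD of 0.581 on array 3 and of 0.276 to 0.333 on the other arrays. The labelled tissue was borne out by its hormone genes: PRL, GH1, POMC, CGA, LHB, FSHB and TSHB were each well above background in all 8 gilts.

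Every one of the 18 probes gave a signal well above background in the 8 gilts, except for 1 of SPARC and 1 of ACTA2, which did so in the gilts of arrays 1 to 3 alone. Those 2 probes lie in the dim area of array 4. A further 2 probes, 1 of SPARC and 1 of DCN, had an outlier flag of the scan software on 2 arrays, so 14 probes were tested. Each ratio below is log2 of pregnant over cyclic after background correction with an offset and loess normalization. The offset pulls ratios of dim probes towards 0.

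Across the 4 genes the brightest tested probe gave a negative ratio for SPARC, ACTA2 and FBN1 and a positive one for DCN. Of the 14 tested probes 10 had a negative ratio, and their median was -0.28. None passed the threshold: by limma, Benjamini-Hochberg adjusted over the 21627 tested probes, 0 of 14 were under 0.05, against 0% of all probes. At an unadjusted limma p under 0.05, 7 of 14 were listed as lower in pregnant gilts and 0 as higher, against 7.62% of all tested probes lower and 10.4% higher. The 7 probes belong to 3 genes, and probes of 1 gene share its RNA, so they are not 7 separate results. The genes were also chosen with earlier results of these data known, so these shares describe the set and do not test it. The median over all tested probes was 0.01, and 46.9% of them had a negative ratio. With the gilts fitted as separate channels, limma called 635 of the 21627 tested probes, of which 1 was among the 14: A_72_P529904 of ACTA2 at -0.37 (adjusted p = 0.0414). The brightest probes of the 4 genes were not among them.

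**Figure D1:**
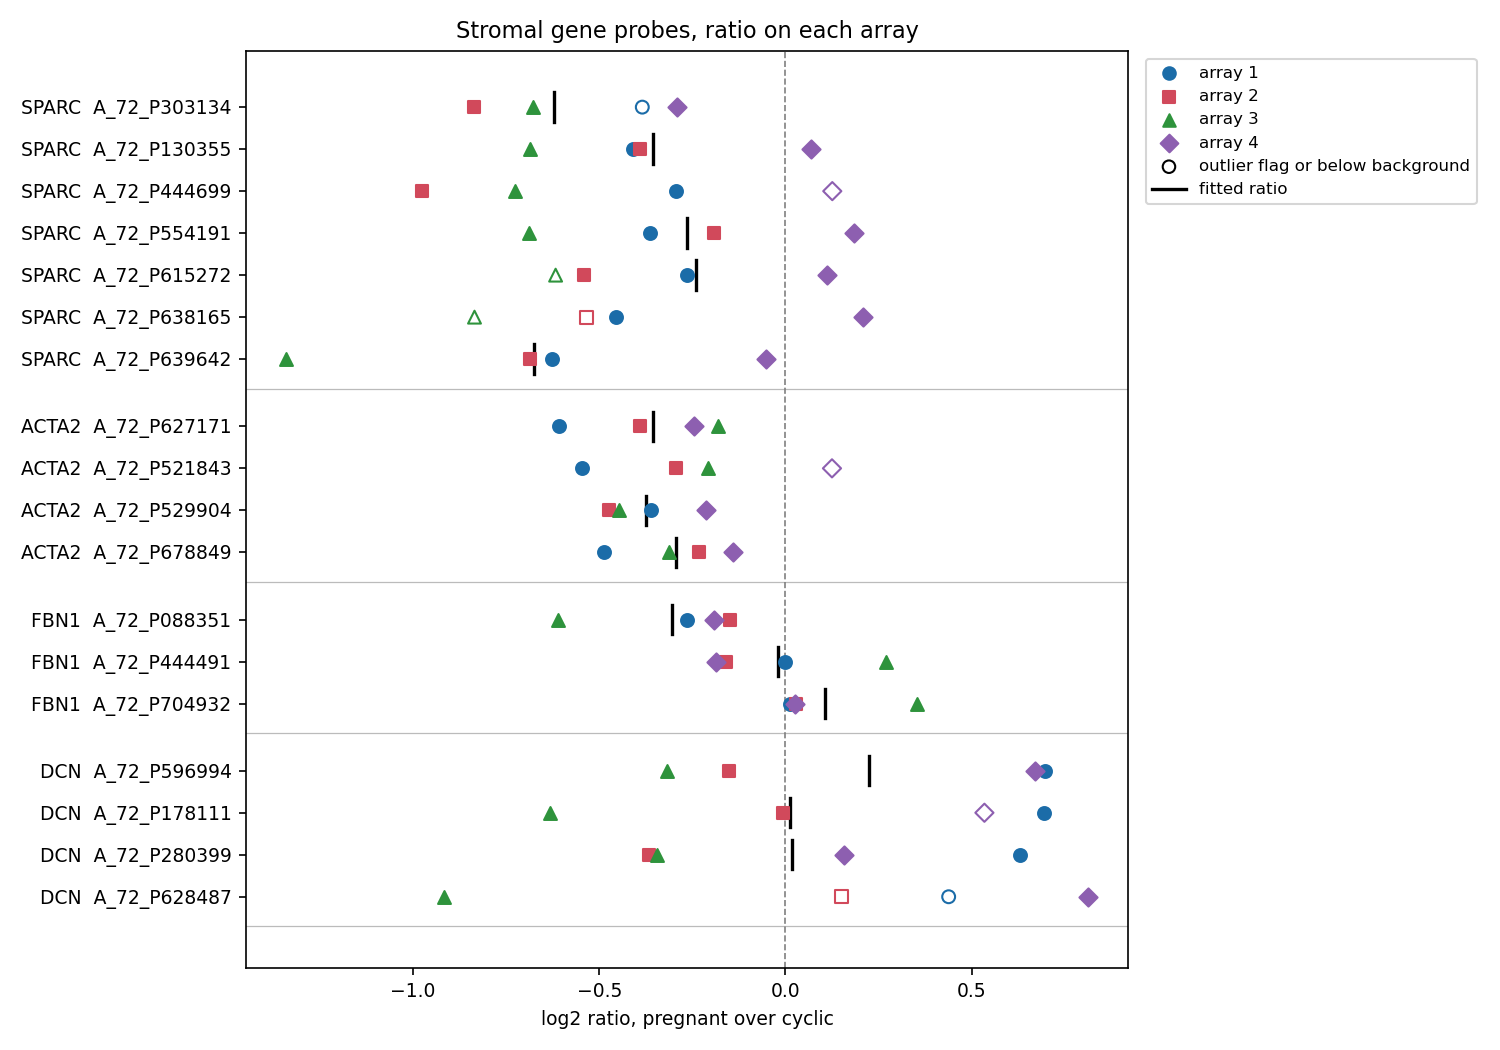
Log2 ratio of pregnant over cyclic on each of the 4 arrays for the 18 probes, with open symbols for spots with an outlier flag or below background and a black bar for the fitted ratio of the 14 tested probes. ACTA2 values lie left of 0 at every filled symbol, SPARC values spread to the right only on array 4, and the filled DCN symbols of arrays 1 and 4 lie right of 0 and those of arrays 2 and 3 left of it or at it.

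SPARC (NM_001031794) encodes osteonectin, a secreted glycoprotein of fibroblasts and mural and endothelial cells. Its brightest tested probe, A_72_P303134, had log2 ratios of -0.84, -0.68 and -0.29 on arrays 2, 3 and 4. The spot on array 1, at -0.38, carried an outlier flag and was left out of the fit. The log2 level was 11.04, 11.89 and 11.21 in the pregnant gilts of arrays 2, 3 and 4 and 11.87, 12.57 and 11.50 in the cyclic gilts of the same arrays. The pregnant gilt was the lower of the pair on each array, while the groups overlapped, because the pregnant gilt of array 3 was above the cyclic gilts of arrays 2 and 4. The fitted ratio was -0.62 ± 0.28 (SD, n = 3), 1.54-fold lower, with a 95% interval from -1.07 to -0.17 (limma, adjusted p = 0.238).

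The other tested SPARC probes had ratios of -0.68 for A_72_P639642, -0.35 for A_72_P130355, -0.27 for A_72_P554191 and -0.24 for A_72_P615272. All 5 tested probes were negative, and 3 of them had an unadjusted limma p under 0.05. Over the 5 probes, 15 of 18 single spot ratios were negative, and the 3 positive ones were all on array 4. Averaged over the probes, the ratios were -0.42, -0.53, -0.85 and 0.00 for arrays 1 to 4, so in these means the difference rests on 3 of the 4 pairs of gilts. Flagged spots leave A_72_P303134 out of the mean of array 1 and A_72_P615272 out of that of array 3. On array 4 the brightest probe was still negative, at -0.29. The SD of these means between arrays was 0.352, and the median SD between single probes of 1 array was 0.218.

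The strongest single value was that of A_72_P639642 on array 3, -1.34, where 0.606% of all tested probes had a lower ratio. On array 4 the same probe gave -0.05, with 35.9% of probes below it. Array 3 is also where ratios of all probes spread most, and with the arrays scaled to the same spread the ratio of the brightest probe was -0.58. Of the 2 untested probes, A_72_P444699 had -0.30, -0.98 and -0.73 on arrays 1 to 3 and was below background on array 4, and A_72_P638165 had -0.45 on array 1 and 0.21 on array 4, with flags on the other two.

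Leaving out 1 array at a time moved the SPARC ratio between -0.74 and -0.24. With array 1 left out SPARC passed (limma, adjusted p = 0.0409), as did A_72_P639642 at -0.85 (limma, adjusted p = 0.0253). But so did 3381 of the 21840 probes tested in that fit, and the ratio of the brightest probe itself did not move. The other 3 fits represent SPARC by another probe, since the brightest one had too few spots left. The -0.74 is that of A_72_P444699 without array 4, a probe untested in the main fit, and the -0.24 that of A_72_P615272 without array 3. A_72_P639642, tested in each of these fits, ran from -0.85 to -0.50. With pregnant RNA taken as Cy3 on all arrays the brightest probe gave 0.15 and A_72_P615272 0.05. That fit has no dye effect, since dye and group then coincide. Both of these probes had 1 flagged spot that was left out, so the labelled dyes are not balanced in their values. The other 3 tested probes then gave -0.19 for A_72_P130355, -0.26 for A_72_P554191 and -0.31 for A_72_P639642. The sign of the brightest probe, but not of these 3, turned with the dye assignment.

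ACTA2 (NM_001164650) encodes smooth muscle alpha actin, the contractile actin of pericytes, vascular smooth muscle and activated fibroblasts. Its brightest probe, A_72_P627171, had log2 ratios of -0.61, -0.39, -0.18 and -0.25 on arrays 1 to 4. The log2 level was 11.00, 11.02, 11.29 and 9.59 in the pregnant gilts and 11.61, 11.41, 11.48 and 9.84 in the cyclic gilts of arrays 1 to 4. Both gilts of array 4 were lowest, where the spot lies in the dim area, and over all 4 arrays the groups overlapped. On arrays 1 to 3 alone every pregnant gilt was below every cyclic gilt. How many of all probes do so on those arrays was not computed. The fitted ratio was -0.36 ± 0.19 (SD, n = 4), 1.28-fold lower, with a 95% interval from -0.63 to -0.09 (limma, adjusted p = 0.238). Without the spots of the dim area it was -0.39.

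The 3 tested ACTA2 probes gave -0.36, -0.37 and -0.29, and their 12 spot ratios were all negative, from -0.61 to -0.14. Being negative on every array measured was found for 11.9% of all tested probes. All 3 were among the probes under an unadjusted limma p of 0.05, with A_72_P529904 first of them at rank 735 of 21627. The untested probe, A_72_P521843, had -0.55, -0.29 and -0.21 on arrays 1 to 3. Its spot on array 4, below background in the dim area, gave 0.12. The SD between arrays was 0.119 for the mean over probes, and the median SD between single probes of 1 array was 0.124.

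Actin genes resemble each other closely, and the probe sequences were not used here, so a share of other actin transcripts in these signals was not tested. ACTA1, the skeletal muscle actin, had -0.48, -0.37, -0.11 and -0.26 on arrays 1 to 4, which is near the ACTA2 values on each array. Its fitted ratio was -0.31 ± 0.16 (SD, n = 4; limma, adjusted p = 0.245). The muscle enzyme CKM had 0.09 ± 0.30 (SD, n = 4) and the intermediate filament DES 0.10 ± 0.68 (SD, n = 4). The skeletal myosins MYH1 and MYH2 had no probe well above background in a whole group. Over the 4 tested genes of that muscle, capsule and cartilage list the summed linear intensity ran from 7086 to 13471 in pregnant and from 7209 to 12813 in cyclic gilts.

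The sign of ACTA2 was negative in every alternative that was run, though some, such as the other filters and the separate-channel fit, leave its ratio unchanged. The ratio of the brightest probe ran from -0.46 to -0.25 on leaving out 1 array. Over the other settings with the dyes as labelled, the mean over probes included, it ran from -0.39 to -0.24. With pregnant RNA taken as Cy3 throughout it was -0.04. With the dyes as labelled A_72_P529904 ranged more widely, from -0.77 to -0.30, and A_72_P678849 ran from -0.34 to -0.17.

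**Figure D2:**
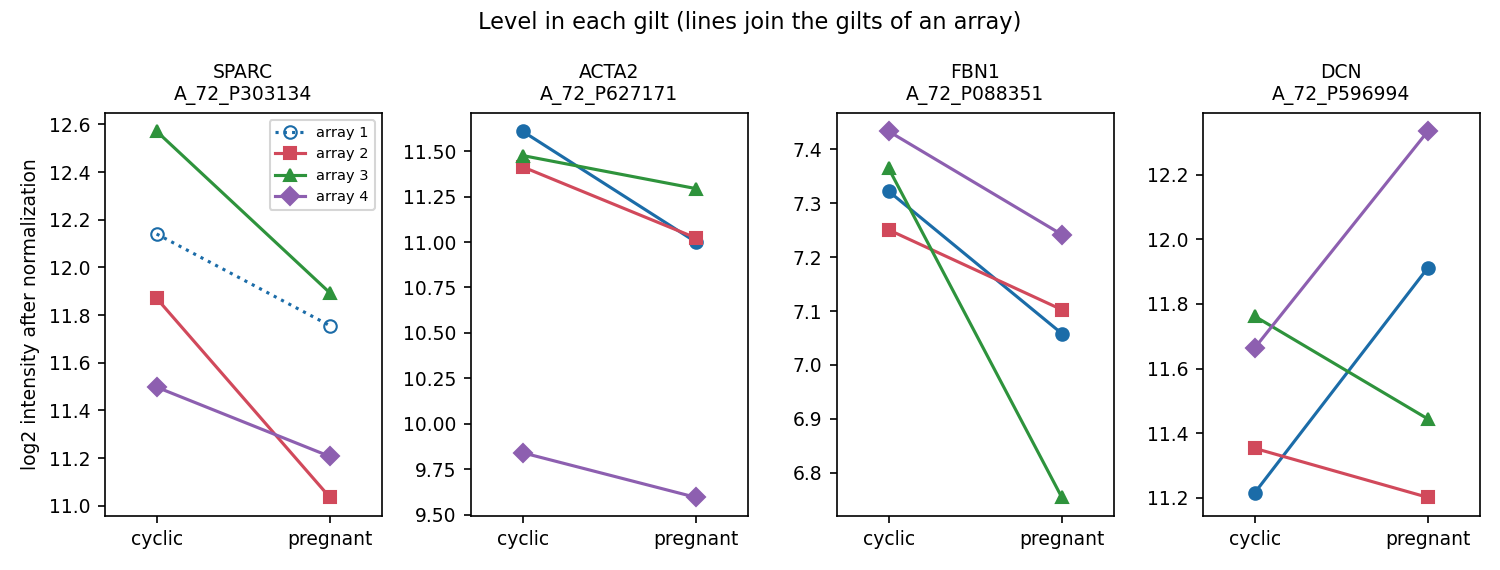
Normalized log2 intensity of the brightest tested probe of each gene in the cyclic and the pregnant gilt of each array, joined by a line, with an open symbol and dotted line for a flagged spot. SPARC, ACTA2 and FBN1 slope down from cyclic to pregnant on every array, DCN slopes up on arrays 1 and 4 and down on arrays 2 and 3, and the 2 gilts of array 4 lie at 9.84 and 9.59 for ACTA2, below all others.

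FBN1 (NM_001001771) encodes fibrillin-1, the backbone of microfibrils in vessel walls and connective tissue. Its brightest tested probe, A_72_P088351, had log2 ratios of -0.26, -0.15, -0.61 and -0.19 on arrays 1 to 4. The log2 level was 7.06, 7.10, 6.75 and 7.24 in the pregnant gilts and 7.32, 7.25, 7.37 and 7.43 in the cyclic gilts. The groups did not overlap, the highest pregnant value, 7.24, being just under the lowest cyclic value, 7.25. These are low levels, though well above background. The SPARC probe A_72_P444699, below background on array 4, had 6.46 in the pregnant and 6.34 in the cyclic gilt there. All pregnant levels lay under all cyclic levels for 1.36% of all tested probes and for 1 of the 14 probes here, A_72_P088351. The fitted ratio was -0.30 ± 0.21 (SD, n = 4), 1.23-fold lower, with a 95% interval from -0.55 to -0.06 (limma, adjusted p = 0.244).

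The other FBN1 probes did not share that ratio. A_72_P444491 had 0.00, -0.16, 0.27 and -0.19 on arrays 1 to 4, fitted at -0.02 (limma, adjusted p = 0.928). A_72_P704932 had 0.01, 0.03, 0.35 and 0.03, fitted at 0.11 (limma, adjusted p = 0.578). On array 3 the probes went opposite ways, from -0.61 to 0.35, and the mean of the 3 probes over all arrays was -0.07. A statement on FBN1 as a gene therefore depends on which probe stands for it.

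The FBN1 probes were dim, and their values moved with the background correction, so the size of the ratio depends on the offset. The ratio of A_72_P088351 was -0.44 with an offset of 10, and -0.78 with the signals processed by the scan software. For A_72_P704932 the processed signals gave -0.04 in place of 0.11. With array 1 left out A_72_P088351 passed at -0.39 (limma, adjusted p = 0.0424), as did 3381 of the 21840 probes tested in that fit.

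DCN (NM_213920) encodes decorin, a small leucine-rich proteoglycan that coats collagen fibrils and binds TGF-beta. Its brightest tested probe, A_72_P596994, had log2 ratios of 0.70, -0.15, -0.32 and 0.67 on arrays 1 to 4. The log2 level was 11.91, 11.20, 11.44 and 12.33 in the pregnant gilts and 11.21, 11.35, 11.76 and 11.66 in the cyclic gilts. The pregnant gilts of arrays 1 and 4 were the highest of the 8, that of array 2 was the lowest, and the groups overlapped. The fitted ratio was 0.22 ± 0.54 (SD, n = 4), with a 95% interval from -0.36 to 0.81 (limma, adjusted p = 0.623).

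The other DCN probes repeated the division between pairs of gilts. A_72_P178111 had 0.70, -0.01 and -0.63 on arrays 1 to 3, with a flagged spot on array 4, and A_72_P280399 had 0.63, -0.37, -0.35 and 0.16 on arrays 1 to 4. The untested A_72_P628487 had -0.92 on array 3 and 0.81 on array 4, with flags on arrays 1 and 2. Averaged over the tested probes the ratio was 0.67, -0.17, -0.43 and 0.41 on arrays 1 to 4. The SD of these means between arrays was 0.512, and the median SD between single probes of 1 array was 0.178. On array 1 96.8% to 97.7% of all tested probes had a lower ratio than the 3 DCN probes, and on array 3 7.1% to 20.0%.

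Arrays 1 and 4, which share the positive sign, carry pregnant RNA in different dyes. The 3 fitted ratios of 0.22, 0.01 and 0.02 are small because values of both signs average out. Leaving out 1 array gave from -0.03 (without array 1) to 0.48 (without array 3), and with pregnant RNA taken as Cy3 throughout the ratio was -0.04.

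**Figure D3:**
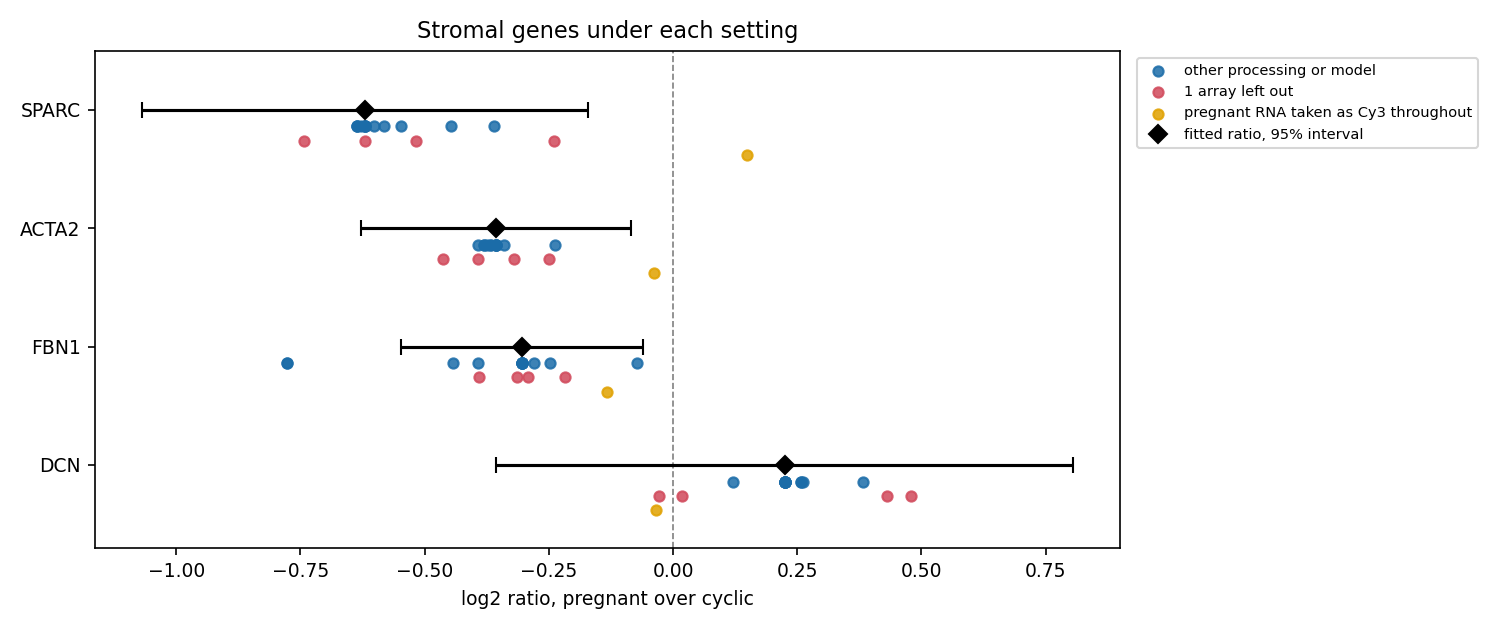
Fitted log2 ratio of each gene with its 95% interval (black) and its values under other processing or models (blue), with 1 array left out (red) and with pregnant RNA taken as Cy3 on all arrays (yellow). ACTA2 and FBN1 stay left of 0 throughout, SPARC does so except for the yellow point at 0.15, and DCN has points on both sides of 0.

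SPARC and DCN, both products of fibroblasts, gave different orders of the arrays in the mean over their tested probes: SPARC was most negative on array 3 and at 0.00 on array 4, while DCN was positive on arrays 1 and 4. Over the gilts, taking the brightest probe of each gene with its mean in a dye subtracted, the levels of SPARC and ACTA2 had r = 0.60 (Pearson) and rho = 0.77 (Spearman) over the 6 gilts that both were measured in. ACTA2 and DCN had r = -0.68 and rho = -0.40 over 8 gilts, but r = -0.18 without the spots of the dim area and 0.34 with levels taken before the normalization between arrays (Aquantile). SPARC and DCN had r = 0.02 over 6 gilts, and it ran from -0.73 to 0.83 on leaving out 1 array and was 0.66 without Aquantile. The 2 gilts of an array share a hybridisation, so these are descriptions of few and linked values.

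The mean level of the 4 genes was most like that of QKI, an RNA-binding splicing regulator, with r = 0.97 over 8 gilts among 1487 named genes compared. For the gilts of array 1 the mean is without SPARC, whose spot was flagged there. Over the genes compared, with the dim area kept, the median r was -0.20 and the 95th percentile 0.71. CD1D, a lipid antigen-presenting molecule, had r = 0.94, the cell cycle kinase CDK4 0.93, the exonuclease EXD2 0.93 and the muscle membrane protein SGCD 0.90. Leaving out the spots of the dim area, which hold that of ACTA2, lowered r to 0.58 for QKI, 0.31 for CDK4, 0.51 for EXD2 and 0.76 for SGCD, and gave 0.97 for CD1D, whose spot lies in the area too.

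Other matrix and mural genes were read from the same fit. Of 159 genes in 10 lists, 50 had a probe and 42 were tested; 0 passed over all probes, 17 had a negative and 25 a positive ratio, and the median was 0.03. At an unadjusted limma p under 0.05, 2 were listed as lower and 3 as higher, where 8.43% and 5.39% of all 1744 tested named genes were. Of all named genes 56.2% had a negative ratio and the median was -0.02. The basement membrane list had 0 genes with a probe.

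Among 4 tested collagens 1 had a negative and 3 a positive ratio. COL5A1, which nucleates fibrils of the major collagens, had -0.14 ± 0.12 (SD, n = 4) and was negative on each array. COL11A1, a cartilage-type fibril collagen, had 0.07 ± 0.27 (SD, n = 4), which became -0.05 with the processed signals. COL8A1, a vessel wall collagen, had 0.03 ± 0.19 (SD, n = 4), and its 2 probes were of opposite sign. P4HA1, the one tested enzyme of collagen processing, had 0.14 ± 0.24 (SD, n = 4), with 4 probes from -0.39 to 0.14. The proteoglycans SDC4, a cell surface co-receptor, and ACAN, of cartilage, had -0.14 ± 0.12 and 0.05 ± 0.09 (SD, n = 4), the latter being -0.09 with the processed signals.

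The most positive ratios of the lists belonged to secreted matrix glycoproteins, in which 3 of 6 tested genes were positive. SPP1, which encodes osteopontin, a secreted ligand of integrins, had 0.88, 0.89 and 0.50 on arrays 1 to 3, with the spot of array 4 flagged. Its fitted ratio was 0.79 ± 0.22 (SD, n = 3; limma, adjusted p = 0.235), and its 4 probes ran from 0.33 to 0.79 with a mean of 0.44. Without array 1 SPP1 was represented by another probe, at 0.14, and without array 2 by that same probe, at 0.20. MGP, an inhibitor of calcification made by vessel walls, had 0.19, 0.03 and 1.31 on arrays 1, 3 and 4. It was fitted at 0.71 ± 0.70 (SD, n = 3; limma, adjusted p = 0.235), and its 4 probes averaged 0.33. Without array 4 another probe represents MGP, at -0.05. TNC, a matrix protein of remodelling tissue, had -0.29 ± 0.69 (SD, n = 4), with probes of both signs, and ran from -0.57 to -0.012 on leaving out 1 array.

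Of 7 tested proteases and inhibitors 5 were positive. The gelatinase MMP2 had -0.24 ± 0.61 (SD, n = 3) and the metalloprotease inhibitor TIMP1 0.16 ± 0.37 (SD, n = 3). In both the SD exceeded the ratio.

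Among 5 tested matrix receptors 3 were negative. ITGB1, the common beta subunit of collagen and fibronectin receptors, had -0.46, -0.35 and -0.41 on arrays 1 to 3 and was fitted at -0.40 ± 0.05 (SD, n = 3; limma, adjusted p = 0.238). Its 3 tested probes ran from -0.40 to -0.25. Leaving out 1 array gave from -0.40 to -0.19, with another probe where the brightest had too few spots. DDR1, a receptor tyrosine kinase for collagen, had -0.28 ± 0.12 (SD, n = 4) and was negative on each array, and ITGAV, an integrin alpha subunit, had -0.14 ± 0.15 (SD, n = 4). The 5 tested ITGAV probes ran from -0.61 to -0.12 with a mean of -0.36. Median centring gave -0.0090 for its brightest probe.

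Other mural genes were measured as well. RGS5, a pericyte marker, had -0.66, -0.55, -1.28 and 0.67 on arrays 1 to 4, fitted at -0.45 ± 0.82 (SD, n = 4; limma, adjusted p = 0.361). With 1 array left out it ran from -0.76 (without array 4) to -0.15 (without array 2). As in the mean over the SPARC probes, the lowest value was on array 3 and the highest on array 4. The tropomyosins TPM1 and TPM2 had -0.23 ± 0.21 and 0.09 ± 0.22 (SD, n = 4), and of 6 tested contractile genes 2 were negative and 4 positive. Of the regulators SMAD3, which carries the TGF-beta signal to the nucleus, had 0.37 ± 0.12 (SD, n = 4; limma, adjusted p = 0.235), positive on each array. TGFB1 and its receptor TGFBR1 had -0.17 ± 0.15 and 0.05 ± 0.17 (SD, n = 4). Of the fibroblast surface genes THY1 had -0.25 ± 0.28, IGFBP7 -0.25 ± 0.48 and CD34 0.08 ± 0.18 (SD, n = 4), with 3 of 5 tested genes negative. IGFBP7 ran from -0.49 to -0.0054 on leaving out 1 array.

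**Figure D4:**
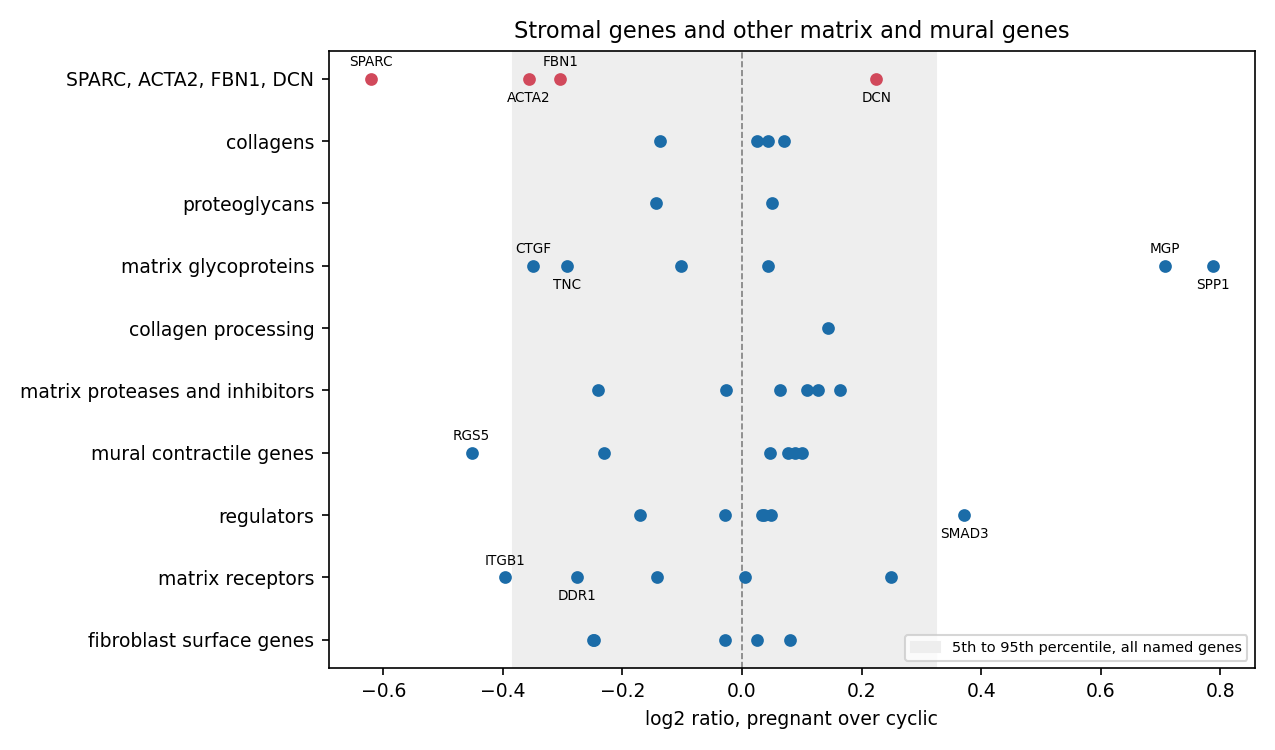
Log2 ratio of pregnant over cyclic for the 4 genes (red) and for tested genes of 9 matrix and mural lists (blue), 1 point per gene and 1 gene not drawn, with the range from the 5th to the 95th percentile of all named genes shaded from -0.38 to 0.32. SPARC at -0.62 lies left of the shaded range, ACTA2 at -0.36 and FBN1 at -0.30 lie inside it, and of the list genes RGS5 and ITGB1 lie left of it and SPP1, MGP and SMAD3 right of it.

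Markers of the cells that adjoin the stroma were compared as well, and their part in the values above was not tested. Of 10 endothelial markers 4 were tested, and 3 had a negative ratio. The summed linear intensity of the 4 ran from 1919 to 2562 in pregnant and from 2066 to 2803 in cyclic gilts. ENG, a TGF-beta co-receptor of endothelium that some stromal cells also make, had -0.45, -0.14, -0.81 and -0.01 on arrays 1 to 4, lowest on array 3 and highest on array 4, as in the mean over the SPARC probes. Of 15 hormone cell markers 13 were tested, 11 with a negative ratio, and their summed intensity ran from 751578 to 1337130 in pregnant and from 984462 to 1474340 in cyclic gilts. The sums do not show how single genes varied between pairs. GH1 had -0.94, 1.14, -2.39 and 2.16 and TSHB -0.15, -4.85, 6.30 and -1.36 on arrays 1 to 4. Others varied less, such as CHGA with an SD of 0.26 over arrays. Of 13 stromal and mural markers, the 4 genes included, 5 were tested, 4 with a negative ratio, and their sum ran from 6879 to 9687 in pregnant and from 7458 to 13072 in cyclic gilts. The ranges overlapped in each of these lists.

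The remaining marker lists gave like overlaps. Of 10 markers of folliculostellate and stem cells 3 were tested, all with a negative ratio, with sums of 1802 to 4178 in pregnant and 2161 to 4410 in cyclic gilts. Of 9 posterior lobe and neural markers 3 were tested, 2 of them negative, with sums of 6057 to 9953 and 7626 to 9608. Of 9 myeloid markers 5 were tested, 3 of them negative, with sums of 3077 to 3824 and 2856 to 4275. Of 7 lymphocyte markers 2 were tested, 1 of them negative, with sums of 554 to 692 and 430 to 693. The intermediate lobe and erythrocyte lists had 0 genes with a probe. In all marker lists 0 genes passed (limma, Benjamini-Hochberg adjusted).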

How the data were processed

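Agilent Feature Extraction 10.7.3.1, per the file headers, produced the deposited intensity of each spot and its surroundings in both dyes and a processed signal. A deposited log10 ratio of the dyes was not used. The authors' deposited value table holds log2 ratios; against log2 of the processed signals its columns had slopes of -1, 1, -1 and 1, so it follows the dyes of the sample labels. It is not centred, and no source used here names its software. The labels state a RIN of at least 8 and 825 ng of cRNA per dye.

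Median intensities were corrected by normexp (offset 50) and normalised by loess with control spots at weight 0. Outlier-flagged spots were dropped. A tested probe had 3 or more unflagged spots and, in 1 group or both, was well above background in all 4 gilts. The model, with a dye effect, used lmFit and eBayes of limma 3.58.1 (R 4.3.3), and was tested on simulated data. The fit with pregnant RNA taken as Cy3 throughout had no dye effect. Levels are log2 intensities after loess and Aquantile. A gene is represented by its brightest tested probe. Values after ± are SD over arrays. The 8 gilts are separate animals.

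The members and lists were chosen with earlier results of these data known. The genes named are the members, up to 3 genes of each list with the smallest p, and the 5 genes most like the members, of which 1 list gene is counted but not reported here by name; ACTA1, CKM, DES, MYH1, MYH2 and ENG come from the marker lists and were chosen after their values were seen. Other background, normalization, filter, model, dye and probe choices and leaving out each array were tried. The dim area of array 4 was drawn as touching tiles of 10 by 5 spots in which at least 25% of bright spots were dimmed.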

Additional observations from a re-analysis of the deposited data

Results flagged for a closer look

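Dixon's ratio was computed for 36 sets of 4 values, and 3 sets had a sample far from the rest. About 1 in 20 would by chance. The FBN1 probe A_72_P704932 had 0.35 on array 3, against 0.01 to 0.03 on the other arrays. The ACTA2 level of the cyclic gilt of array 4 was 9.84, against 11.41 to 11.61 in the other cyclic gilts, and its spot lies in the dim area. CD34 had -0.18 on 1 array, against 0.13 to 0.19 on the other 3.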

How the results depend on the processing

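Over 18 alternatives the 4 genes gave 72 ratios, of which 67 kept the sign and the side of the threshold, 3 changed sign and 2 passed. These are not separate checks. The other filters and the separate-channel fit leave the ratio of a given probe unchanged. So do kept flags and no dye effect where the probe has no flagged spot. The processed signals and the value table gave the same ratios. With pregnant RNA in Cy3 on all arrays SPARC had 0.15 and DCN -0.035. Leaving out 1 array gave -0.74 to -0.24 for SPARC, with another probe of the gene where the brightest had too few spots. It gave -0.39 to -0.22 for FBN1 and -0.029 to 0.48 for DCN. The counts were 0 to 2 called genes of the 4, 0 to 2 called list genes and 0 to 3381 called probes. The highest counts, with SPARC and FBN1 called, came without array 1, where 3381 of 21840 tested probes were called. Called probes numbered 1 with an offset of 10, 1 with no background correction, 2 with no dye effect and 635 in the separate-channel fit, which called 1 list gene, SMAD3, and the ACTA2 probe A_72_P529904. Among probes at an unadjusted limma p under 0.05 the share that was higher went from 57.8% to 82.2% with median centring, which put the median of all probes at 0.08; SPARC was then -0.36, ACTA2 -0.24 and FBN1 -0.25. The cause of these changes was not tested.

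Of 24 list genes 12 changed sign somewhere. With Cy3 throughout these were COL5A1 (0.068), COL8A1 (-0.12), MGP (-0.36), MMP2 (0.21), ITGAV (0.0071), SDC4 (0.034), ACAN (-0.054), SMAD3 (-0.077) and TGFBR1 (-0.14). With no background correction ACAN was -0.0092. With the processed signals, and with the value table, ACAN was -0.088 and COL11A1 -0.054. With all probes of a gene averaged P4HA1 was -0.11, COL8A1 -0.14 and CD34 -0.082, and without the dim area CD34 was -0.012. Leaving out 1 array gave -0.053 to 0.10 for COL8A1, -0.0093 to 0.15 for COL11A1, -0.012 to 0.17 for CD34 and -0.047 to 0.71 for MGP, with another probe of the gene where the brightest had too few spots. Without array 1 the called list genes were IGFBP7 (-0.49, limma adjusted p = 0.0377) and CTGF (-0.87, limma adjusted p = 0.0261), the latter named for its call here.

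Correlations over gilts moved widely. Leaving out 1 array gave 0.38 to 0.92 for SPARC with ACTA2, -0.35 to 0.45 for SPARC with FBN1, -0.73 to 0.83 for SPARC with DCN, -0.40 to 0.45 for ACTA2 with FBN1, -0.77 to -0.19 for ACTA2 with DCN and -0.079 to 0.30 for FBN1 with DCN. Without Aquantile they were 0.87 for SPARC with ACTA2, 0.56 for SPARC with FBN1, 0.66 for SPARC with DCN, 0.66 for ACTA2 with FBN1, 0.34 for ACTA2 with DCN and 0.098 for FBN1 with DCN. Without dye centring SPARC with DCN was -0.034. Without the dim area, an alternative chosen after the data were seen, ACTA2 with FBN1 was 0.43 and ACTA2 with DCN -0.18. The reported fit on ratios within arrays is itself the paired analysis of the 4 pairs of gilts.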
